A study of Mus musculus with 52 samples.

Results

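Dendritic cells take up antigen in a tissue and present it to T cells, and they fall into subsets that are told apart by the genes they express. Here 10 genes used to name these subsets were followed across bulk RNA-seq of KPC pancreatic tumors, out of 27525 genes in the deposited table. They were taken by name as genes that mark these subsets, with earlier results of these data known: Xcr1, Clec9a, Batf3, Wdfy4, Flt3, Zbtb46, Cd209a, Itgae, Siglech and Fscn1.

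Type 1 conventional dendritic cells, or cDC1, cross-present antigen to CD8+ T cells. They carry the chemokine receptor XCR1, the dead-cell receptor CLEC9A and, in some tissues, the integrin chain CD103 encoded by Itgae. BATF3 is a transcription factor needed for their development, and WDFY4 is needed for their cross-presentation. FLT3 is the receptor for the growth factor FLT3L, on which dendritic cells depend, and ZBTB46 is a transcription factor of the conventional lineages that blood endothelium also expresses. Cd209a, a C-type lectin, marks a share of type 2 conventional (cDC2) and monocyte-derived dendritic cells. Siglech encodes a receptor of plasmacytoid dendritic cells (pDC), and Fscn1, the actin-bundling protein fascin, is raised in mature dendritic cells that migrate to lymph nodes but is also made by many tumor cells.

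The samples were tumors grown from KxPxCx (KPC) cells, a line derived from a pancreatic tumor of a genetically engineered mouse with a Pdx1-Cre transgene. The cells were injected under the skin of syngeneic male C57BL/6NHsd mice aged 8 to 10 weeks, so every group shared the same tumor line and host strain. The 4 groups of 8 tumors were untreated, ADU-S100 (a STING agonist given once into the tumor at 2 µg), anti-LTβR (the agonist antibody 4H8 against the lymphotoxin-β receptor, given into the peritoneum 4 times at 0.1 mg) and the combination of both. Tumors were collected on day 14 after treatment began. Each library held RNA of a whole tumor made from 1 cell line, and in bulk samples fewer cells of a type and less RNA per cell cannot be told apart. The 32 libraries held 12762453 to 15591986 reads assigned to genes. In 30 of them the median correlation with the other tumors of the group was between 0.947 and 0.979, and combination tumors 7 and 6 stood lowest at 0.934 and 0.941, so results that rest on them are also given without them.

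The 10 genes lie on 9 mouse chromosomes, and their positions in the deposited table are on the mm39 build. The cDC1 genes were Xcr1 (ENSMUSG00000060509, chr9:123681380-123691094, minus strand), Clec9a (ENSMUSG00000046080, chr6:129385825-129401726, plus strand), Batf3 (ENSMUSG00000026630, chr1:190830044-190841142, plus strand), Wdfy4 (ENSMUSG00000051506, chr14:32681504-32907465, minus strand) and Itgae (ENSMUSG00000005947, chr11:72981409-73038272, plus strand). The genes shared by conventional dendritic cells were Flt3 (ENSMUSG00000042817, chr5:147267551-147337299, minus strand) and Zbtb46 (ENSMUSG00000027583, chr2:181029555-181101219, minus strand). The remaining genes were Cd209a (ENSMUSG00000031494, chr8:3793397-3798984, minus strand), Siglech (ENSMUSG00000051504, chr7:55417926-55428673, plus strand) and Fscn1 (ENSMUSG00000029581, chr5:142946098-142958940, plus strand). In the GENCODE annotation of the GRCm38 build, 184 exonic bases of Clec9a are also exons of its neighbour Clec1b on the same strand, and no other member shared exonic bases with another gene. Cd209a belongs to a family of related Cd209 genes, and how reads that fit more than 1 of them were counted is not given in the sources used here.

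Clec9a and Wdfy4 are the cDC1 genes that were higher in both anti-LTβR and combination tumors, and the windows around their RefSeq starts are shown for that reason. The sequences are the RefSeq windows on GRCm38.p6 from 250 bases before to 20 bases after the annotated start, printed 5′ to 3′ on the gene's strand: chr6:129408612-129408881 on the plus strand for Clec9a and chr14:33185047-33185316 on the minus strand for Wdfy4. Capitals mark a match to an interferon regulatory factor (IRF) motif, searched as GAAANNGAA on both strands.
Clec9a: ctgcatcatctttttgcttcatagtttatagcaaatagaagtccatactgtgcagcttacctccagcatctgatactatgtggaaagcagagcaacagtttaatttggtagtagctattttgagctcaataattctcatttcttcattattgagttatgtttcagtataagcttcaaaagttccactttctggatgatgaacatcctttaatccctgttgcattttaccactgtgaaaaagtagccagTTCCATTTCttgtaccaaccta
Wdfy4: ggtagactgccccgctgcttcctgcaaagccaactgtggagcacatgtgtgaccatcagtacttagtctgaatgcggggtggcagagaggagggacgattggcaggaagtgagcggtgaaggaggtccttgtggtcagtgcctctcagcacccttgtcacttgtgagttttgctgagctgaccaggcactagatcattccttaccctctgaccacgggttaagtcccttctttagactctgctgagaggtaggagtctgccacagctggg
The Clec9a match begins 2 bases before the start, and the IRF letters are found in 8.56% of all 32851 RefSeq windows of 300 bases. In the windows of the 9 members that have one, the AP-1 letters TGANTCA (held by 7.81% of all windows) were found only in that of Zbtb46 and the PU.1 letters GAGGAAGT (held by 3.2%) in none. The windows of Wdfy4, Batf3 and Zbtb46 lie wholly inside the genes as GENCODE annotates them on GRCm38, downstream of the outermost start, so the printed Wdfy4 sequence is not upstream of the whole gene. The Zbtb46 window is not printed. No match overlapped another, and the table gives no window for Itgae.

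Levels differed widely among the members. Per kb of exons and averaged over the 32 tumors, the level of Fscn1 was 1077 normalized counts, against 33.8 for Wdfy4, 27.2 for Zbtb46, 22.8 for Cd209a and 20.9 for Batf3. Itgae stood at 13.1, Clec9a at 11.5, Flt3 at 7.86, Siglech at 6.83 and Xcr1 at 6.31 normalized counts per kb. In untreated tumors the SD between tumors was 7.66% of the mean for Fscn1, 13.7% for Wdfy4, 25.3% for Itgae, 29.3% for Flt3, 39.9% for Clec9a and 62.5% for Cd209a. All 10 genes passed the filter on low counts in every comparison.

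**Figure D1:**
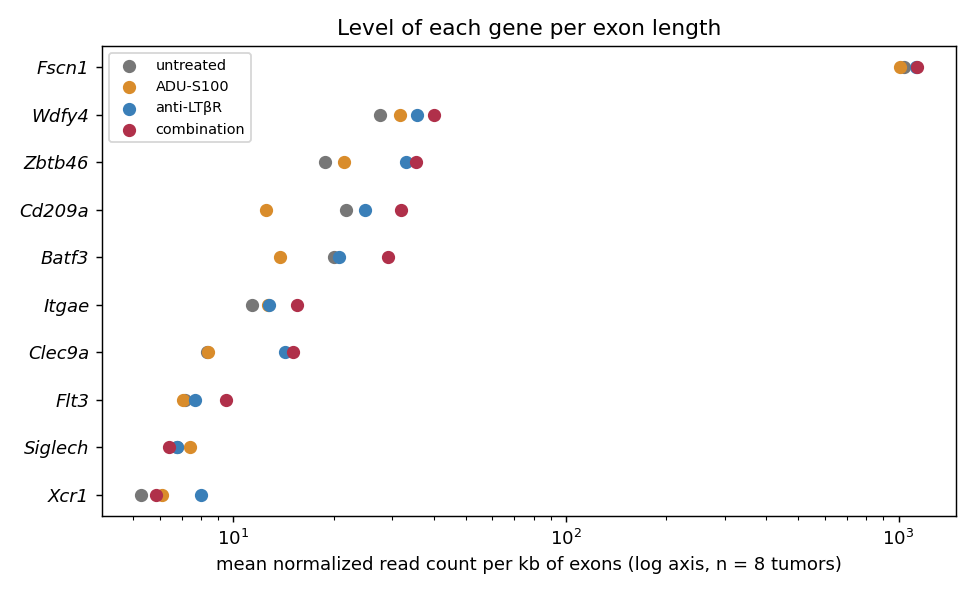
The plot gives the mean normalized read count per kb of exons of each gene (log axis) in the 4 groups of 8 tumors. Fscn1 stands at 1008 or higher in every group, and the other 9 genes lie between 5.27 and 40.1.

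The comparison of combination with untreated tumors asks what both agonists together did to the tumor by day 14. Of the 10 genes, 6 rose (Zbtb46, Wdfy4, Clec9a, Itgae, Batf3 and Flt3), none fell, and Fscn1, Cd209a, Xcr1 and Siglech did not pass the test. A gene passed at a false discovery rate (FDR, the Benjamini-Hochberg adjusted p of limma over all genes) below 0.05. Among all 16909 genes tested, 19.6% passed as higher and 23.6% as lower. The members' median log2 fold change was 0.50, against -0.02 for all genes. Because the 10 were chosen with earlier results of these data known, this contrast is a description. None of the 10 reached the 2-fold change that the study also asked for, which 5.16% of all genes did as higher.

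Zbtb46 showed the largest of these increases. Its normalized count ran from 96.5 to 210.1 (median 165.4) in untreated tumors and from 210.3 to 375.6 (median 311.5) in combination tumors, so the groups did not overlap, although the lowest combination tumor and the highest untreated tumor all but met. Among all genes, 4.64% had every combination tumor above every untreated tumor. The means were 160.3 ± 36.8 and 301.4 ± 54.8 (SD, n = 8 tumors in each group), and the log2 fold change was 0.92 (SE 0.15, adjusted p = 0.000192 in limma).

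Wdfy4 and Clec9a, both cDC1 genes, also rose. Wdfy4 ran from 234.0 to 368.7 (median 293.8) in untreated and from 306.7 to 544.4 (median 416.4) in combination tumors, and 6 of the 8 combination tumors lay above every untreated tumor. Its log2 fold change was 0.53 (SE 0.11, adjusted p = 0.00144 in limma). Clec9a ran from 14.4 to 49.8 (median 27.2) in untreated and from 26.0 to 75.7 (median 55.9) in combination tumors. Of the combination tumors, 5 lay above every untreated tumor and 3 lay between 26.0 and 36.0, inside the untreated range. The log2 fold change of Clec9a was 0.84 (SE 0.26, adjusted p = 0.0166 in limma). Clec1b, the neighbour that shares exonic bases with it and was named after its values were seen, rose as well, by 1.10 on the log2 scale (adjusted p = 0.00153 in limma), and how far shared reads enter either count was not tested.

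Itgae, Batf3 and Flt3 rose too. Itgae ran from 33.1 to 66.1 (median 54.0) in untreated and from 57.6 to 85.9 (median 70.6) in combination tumors, with 5 combination tumors above every untreated tumor and a log2 fold change of 0.47 (SE 0.15, adjusted p = 0.0195 in limma). Batf3 ran from 16.2 to 51.9 (median 31.0) and from 36.0 to 61.1 (median 46.7), with a log2 fold change of 0.59 (SE 0.21, adjusted p = 0.0313 in limma). Flt3 ran from 29.7 to 70.2 (median 40.7) and from 50.7 to 75.1 (median 55.0), with a log2 fold change of 0.43 (SE 0.16, adjusted p = 0.0382 in limma). For Batf3 and for Flt3 only 2 combination tumors lay above every untreated tumor, and untreated tumor 3 was the highest of its group in both.

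These calls were not equally firm. With each of the 16 libraries left out in turn, Zbtb46, Wdfy4, Clec9a and Itgae passed in all 16 fits, Batf3 in 9 (adjusted p 0.00951 to 0.0635 in limma) and Flt3 in 8 (0.00663 to 0.0756). Batf3 lost its call without untreated tumor 1, 5 or 6 or combination tumor 3, 4, 5 or 6, and Flt3 without untreated tumor 2, 4, 5, 7 or 8 or combination tumor 6, 7 or 8. Flt3 also lost its call in 3 of the 9 alternative fits planned. Without combination tumors 6 and 7 together, Zbtb46, Wdfy4 and Itgae passed, and Clec9a (adjusted p = 0.0653 in limma), Batf3 (0.0828) and Flt3 (0.153) did not. That fit held fewer tumors. Its log2 fold changes were 0.73 for Clec9a, 0.55 for Batf3 and 0.32 for Flt3, against 0.84, 0.59 and 0.43 with all tumors.

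The 4 genes that did not pass differed from each other. Fscn1 ran from 2849 to 3471 (median 3111) in untreated and from 3098 to 3709 (median 3451) in combination tumors, a log2 difference of 0.13 (95% confidence interval 0.02 to 0.24, adjusted p = 0.0523 in limma), and it passed in 5 of the 9 alternative fits planned. Cd209a ran from 14.1 to 81.4 (median 27.0) and from 31.3 to 81.1 (median 50.7), a log2 difference of 0.67 (95% confidence interval 0.03 to 1.31, adjusted p = 0.0836 in limma). Its highest untreated value came from tumor 3, and without that tumor the difference was 0.87 (adjusted p = 0.0125 in limma). Xcr1 ran from 10.5 to 38.5 (median 20.6) and from 17.1 to 43.2 (median 21.0), a log2 difference of 0.17 (95% confidence interval -0.39 to 0.73). Siglech, the pDC gene, ran from 9.85 to 31.6 (median 24.7) and from 12.8 to 38.8 (median 20.8), a log2 difference of -0.07 (95% confidence interval -0.61 to 0.47). The intervals of Xcr1 and Siglech hold changes in both directions.

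**Figure D2:**
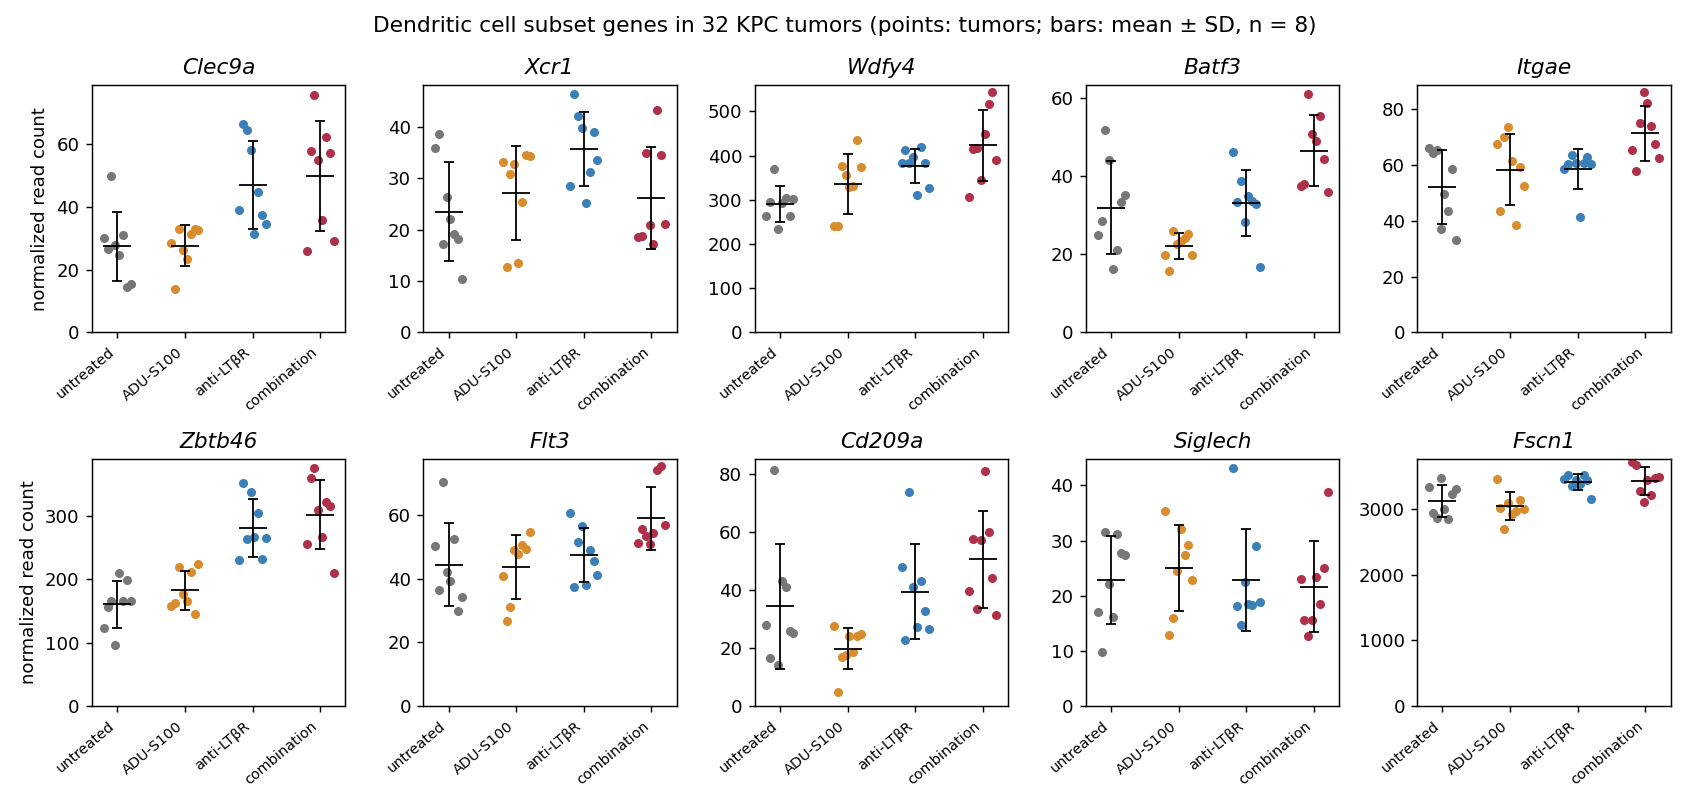
Each panel gives the normalized read count of a gene (linear axis from 0) in every tumor of the 4 groups, with bars for mean ± SD (n = 8). The Zbtb46 points of the anti-LTβR and combination tumors, from 210.3 to 375.6, lie above the untreated points, and the Siglech points of the 4 groups overlap.

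Anti-LTβR alone was compared with untreated tumors to see what the antibody did without the STING agonist. Of the 10 genes, 3 rose (Zbtb46, Wdfy4 and Clec9a) and none fell, where 7.21% of all 16691 genes tested passed as higher and 8.1% as lower. The members' median log2 fold change was 0.24, against 0.00 for all genes. Zbtb46 ran from 230.3 to 350.8 (median 264.8) in anti-LTβR tumors, all above every untreated tumor as in 0.809% of all genes, with a log2 fold change of 0.83 (SE 0.14, adjusted p = 0.00253 in limma). Wdfy4 ran from 311.3 to 419.4 (median 383.3), with 6 tumors above every untreated tumor and a log2 fold change of 0.38 (SE 0.09, adjusted p = 0.0104 in limma). Clec9a ran from 31.5 to 66.4 (median 41.8), with 3 tumors above every untreated tumor and a log2 fold change of 0.79 (SE 0.23, adjusted p = 0.0333 in limma). Clec9a lost its call in 6 of the 16 fits that left out a library (untreated tumor 4 or 8, or anti-LTβR tumor 2, 3, 4 or 6), with adjusted p from 0.0117 to 0.0641.

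Xcr1, which marks the same subset as Clec9a, had its highest group level in the anti-LTβR tumors. Its values ran from 25.1 to 46.3 (median 36.3), with 4 of the 8 tumors above every untreated tumor. The log2 difference from untreated was 0.66 (SE 0.23, adjusted p = 0.0576 in limma), and it passed without untreated tumor 1 or 2 and in 2 of the 9 alternative fits planned (lowest adjusted p 0.0481). Batf3 (log2 difference 0.09), Flt3 (0.13), Itgae (0.19), Cd209a (0.29), Siglech (0.01) and Fscn1 (0.13, adjusted p = 0.0638 in limma) did not pass.

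ADU-S100 alone changed none of the 10 genes by the test. Over all 16613 genes tested, 0.0% passed in either direction by limma, 2408 had an unadjusted p under 0.05, edgeR on the recovered reads called 1 gene lower, and DESeq2 called 28 higher and 11 lower. The 10 genes' median log2 difference was 0.10, against 0.00 for all genes. Batf3 and Cd209a were the members with the lowest values relative to untreated. Batf3 ran from 15.8 to 26.0 (median 23.0) in the ADU-S100 tumors, 7 of them within and 1 below the untreated range, a log2 difference of -0.44 (95% confidence interval -0.88 to -0.01, adjusted p = 0.340 in limma). Cd209a ran from 4.93 to 27.6 (median 21.4), a log2 difference of -0.69 (95% confidence interval -1.44 to 0.06, adjusted p = 0.361 in limma). The other 8 genes differed by -0.04 to 0.21 on the log2 scale. Zbtb46 differed by 0.21 (95% confidence interval -0.10 to 0.51) and Clec9a by 0.06 (-0.44 to 0.56), both with an upper bound below the value seen with the combination.

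**Figure D3:**
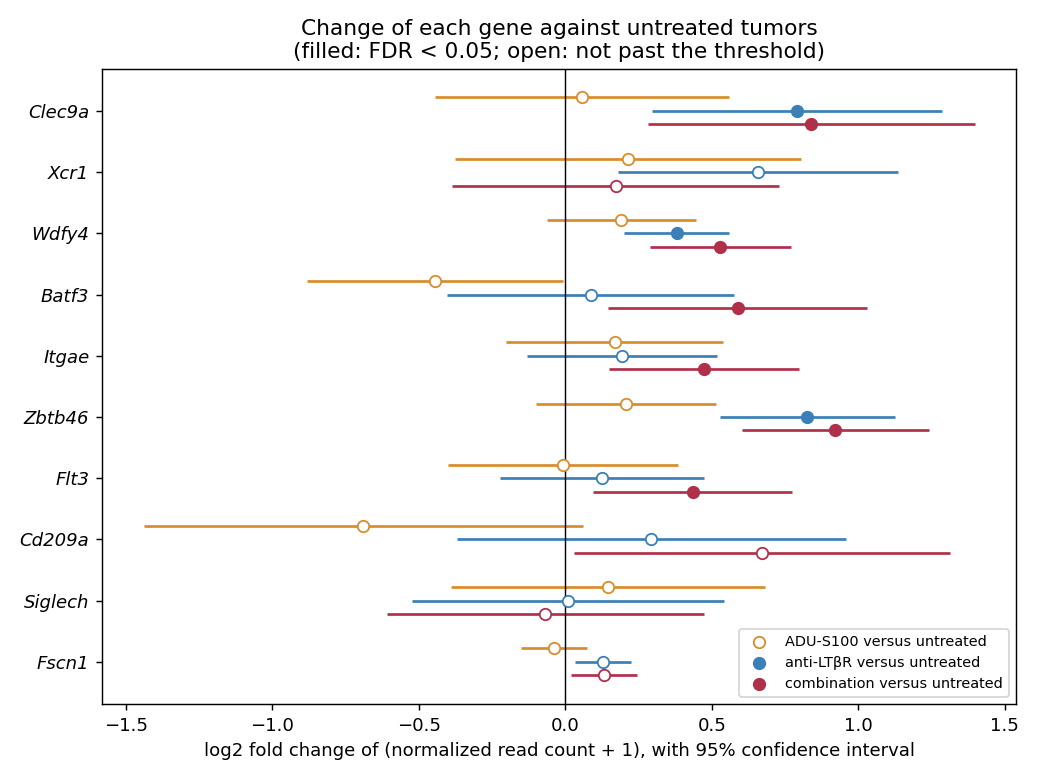
The plot gives the log2 fold change of each gene against untreated tumors with its 95% confidence interval for ADU-S100, anti-LTβR and the combination (n = 8 tumors each), filled where the FDR was below 0.05. Zbtb46, Wdfy4 and Clec9a are filled for both anti-LTβR and the combination, and no gene is filled for ADU-S100.

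The combination was then compared with each agonist alone. Against anti-LTβR, 1 of the 10 genes passed as higher and none as lower, where 11.3% of all 16932 genes tested were higher and 15.3% lower. That gene was Batf3, which ran from 16.7 to 46.0 (median 33.6) with anti-LTβR and from 36.0 to 61.1 (median 46.7) with the combination, with a log2 fold change of 0.50 (SE 0.18, adjusted p = 0.0431 in limma). The call was lost in 11 of the 16 fits that left out a library (anti-LTβR tumor 2, 4, 5, 6, 7 or 8, or combination tumor 3, 4, 5, 6 or 7). The log2 differences of Zbtb46 (0.10, 95% confidence interval -0.16 to 0.35) and Clec9a (0.05, -0.44 to 0.54) held 0 well inside their intervals. Xcr1 was lower in the combination by 0.49 on the log2 scale without passing (SE 0.20, adjusted p = 0.0845 in limma), with 5 combination tumors below every anti-LTβR tumor. Xcr1 did pass without combination tumors 6 and 7 (log2 difference -0.69, adjusted p = 0.0168 in limma) or without combination tumor 6 alone, which held the highest Xcr1 value of the group. Batf3 did not pass without tumors 6 and 7 (log2 difference 0.47, adjusted p = 0.106 in limma).

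Against ADU-S100 alone, 6 of the 10 genes were higher in the combination (Batf3, Cd209a, Zbtb46, Clec9a, Fscn1 and Flt3) and none was lower, where 20.2% of all 16811 genes tested were higher and 26.0% lower. Batf3 and Cd209a also passed the 2-fold limit, as 5.46% of all genes did as higher. In both genes each combination tumor lay above each ADU-S100 tumor, as in 5.0% of all genes. The log2 fold change was 1.03 for Batf3 (SE 0.14, adjusted p = 3.6e-05 in limma) and 1.36 for Cd209a (SE 0.29, adjusted p = 0.00117 in limma), and both passed the FDR in all 16 fits that left out a library, with values from 0.97 to 1.08 for Batf3, which reach under the 2-fold limit of 1, and from 1.12 to 1.45 for Cd209a. Zbtb46 was higher by 0.72, Clec9a by 0.78, Fscn1 by 0.17 and Flt3 by 0.44 on the log2 scale (adjusted p = 0.000212, 0.0115, 0.00829 and 0.0255 in limma). Flt3 lost its call without ADU-S100 tumor 3 or combination tumor 6 or 7, and without tumors 6 and 7 together its log2 difference was 0.33 (adjusted p = 0.108 in limma). The other 5 genes passed without those 2 tumors. Wdfy4 stood at the threshold (log2 difference 0.34, adjusted p = 0.0523 in limma) and passed in 7 of the 9 alternative fits planned.

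A test of the interaction asked whether the combination differed from the sum of both single effects on the log2 scale. Batf3 alone of the 10 passed, with a positive term, where 7.33% of all 17649 genes tested had a positive and 11.0% a negative one. Its term was 0.95 (SE 0.27, adjusted p = 0.0148 in limma): its mean count was 31.9 ± 11.9 without treatment, 22.1 ± 3.39 after ADU-S100, 33.1 ± 8.39 after anti-LTβR and 46.5 ± 9.12 after both (SD, n = 8). It passed in all 32 fits that left out a library (adjusted p 0.00448 to 0.0270) and without combination tumors 6 and 7 (0.0309). Cd209a had a term of 1.07 (SE 0.44, adjusted p = 0.0868 in limma) and Xcr1 of -0.70 (SE 0.35, adjusted p = 0.165 in limma). The terms of Zbtb46 (-0.11), Wdfy4 (-0.04) and Clec9a (-0.01) lay near 0, with 95% confidence intervals that reached from -0.50 to 0.28, -0.38 to 0.29 and -0.70 to 0.68.

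The order of the group means differed between genes. For Zbtb46, Wdfy4, Clec9a and Itgae it ran from untreated through ADU-S100 and anti-LTβR to the combination. In Zbtb46 the step from ADU-S100 to anti-LTβR was larger than the spread (log2 fold change 0.62, adjusted p = 0.00725 in limma), and the steps on either side of it did not pass. Clec9a (0.73, adjusted p = 0.0403) and Fscn1 (0.17, adjusted p = 0.0257) also passed between ADU-S100 and anti-LTβR, the 3 among the 10 genes that did, where 3.38% of all 16649 genes tested were higher with anti-LTβR. For Batf3, Cd209a, Flt3 and Fscn1 the lowest group was ADU-S100 and the highest the combination. For Xcr1 the highest was anti-LTβR, and for Siglech the 4 means lay between 21.6 and 25.0 with SDs of 7.73 to 9.21.

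Within groups, some members varied together from tumor to tumor. As a description over 32 tumors, with the group means taken out and library and depth shared by the genes of a tumor, Pearson's r was 0.64 for Flt3 with Cd209a, 0.60 for Xcr1 with Clec9a, 0.58 for Clec9a with Flt3, 0.56 for Wdfy4 with Flt3 and 0.56 for Clec9a with Wdfy4. For Batf3, r with the other cDC1 genes was 0.07 with Xcr1, 0.12 with Itgae, 0.32 with Wdfy4 and 0.36 with Clec9a. Fscn1 had a negative r with Zbtb46 (-0.40) and Wdfy4 (-0.34). By the same measure over all genes, the closest were Tbc1d8 for Wdfy4 (r 0.85), Suv39h1 for Fscn1 (0.82), Mdga1 for Zbtb46 (0.77), Cmc2 for Clec9a (0.75), Nrros for Cd209a (0.73) and Paxx for Batf3 (0.72). For Flt3 it was Gm36161 (0.70), for Xcr1 Hotairm1 (0.66), for Itgae 4930466K18Rik (0.66) and for Siglech Hp (0.66). Clec10a, a C-type lectin of cDC2 and macrophages, was the second closest to Cd209a (0.71), and Clec9a the third closest to Xcr1.

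Other genes of each subset were followed in lists that leave out the 10 members. Of 7 other cDC1 genes, 1 rose and 1 fell with the combination against untreated, where 19.6% of all genes were higher and 23.6% lower. Their median log2 fold change was -0.01, against -0.02 over all genes. Irf8, a transcription factor that cDC1 and pDC need, had means of 1005 ± 111 and 1585 ± 319 and rose by 0.64 on the log2 scale (adjusted p = 0.000411 in limma), and Cadm1, an adhesion molecule of cDC1 that epithelial cells also make, fell by 0.72 on the log2 scale (adjusted p = 0.00111). Clec9a and Xcr1 had untreated means of 27.5 and 23.5, far below that of Irf8, and which cells carried Irf8 was not tested. Snx22 (log2 difference 0.41) and Naaa (-0.08) did not pass. With anti-LTβR alone 2 of the 7 rose, Irf8 by 0.50 on the log2 scale (adjusted p = 0.00113 in limma) and Tlr3, a sensor of double-stranded RNA, by 0.30 (adjusted p = 0.0366). In combination against anti-LTβR tumors none was higher and 3 were lower, with log2 fold changes of -0.18 for Naaa, -0.31 for Tlr3 and -0.40 for Cadm1 (adjusted p = 0.0049, 0.0312 and 0.0249 in limma), where 11.3% of all genes were higher and 15.3% lower. Tlr3, named after its values were seen, also had a negative interaction term of -0.46 (adjusted p = 0.022 in limma).

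Of 7 other cDC2 genes tested out of 10 listed, 3 rose and 1 fell with the combination against untreated (median log2 fold change 0.46). Among all genes 19.6% were higher and 23.6% lower in that comparison. Irf4, a transcription factor of cDC2 as well as of plasma cells and activated T cells, had means of 105.2 ± 52.6 and 324.5 ± 102.9 and rose by 1.70 on the log2 scale (adjusted p = 0.000129 in limma). The inhibitory receptor gene Sirpa, which macrophages also express, rose by 0.84 and Esam, an adhesion molecule also of endothelium, by 0.64 (adjusted p = 4.76e-05 and 0.000505), and Klf4 fell by 0.56 on the log2 scale (adjusted p = 0.000466). In combination against ADU-S100 tumors, 6 of these 7 were higher and Klf4 was lower (log2 fold change -0.44, adjusted p = 0.00347 in limma), where 20.2% of all genes were higher and 26.0% lower.

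Of 10 other pDC genes tested out of 11 listed, 5 rose and none fell with the combination against untreated (median log2 fold change 0.42). Siglech did not pass, and 19.6% of all genes were higher and 23.6% lower. The 5 that rose were Lag3 (log2 fold change 0.77), Tcf4 (0.23), Spib (1.01), Pacsin1 (0.61) and, named because it completes the count, Atp1b1 (0.87), with adjusted p from 0.00491 to 0.0382 in limma. Lag3 is also an inhibitory receptor of activated T cells, and Spib is also a transcription factor of B cells.

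Of 14 other genes of mature dendritic cells tested out of 15 listed, 3 rose and 1 fell with the combination against untreated (median log2 fold change 0.21). The share that rose was near that of all genes, of which 19.6% were higher and 23.6% lower. Cd200 rose by 0.77, Tmem123 by 0.39 and Il4i1 by 0.41 on the log2 scale, and Serpinb6b fell by 0.48 (adjusted p from 9.07e-05 to 0.0379 in limma). Ccr7, the chemokine receptor that guides mature dendritic cells and naive T cells to lymph nodes and that was named after its values were seen, had means of 85.0 ± 23.2 without treatment, 65.3 ± 12.1 after ADU-S100, 68.0 ± 16.8 after anti-LTβR and 105.8 ± 21.9 after both. It did not pass against untreated (log2 difference 0.32, adjusted p = 0.107 in limma) and had a positive interaction term of 0.99 (adjusted p = 0.00231). In all, 5 of the 14 genes passed with a positive term, as did 7.33% of all genes tested. The term of Fscn1 was 0.04 (adjusted p = 0.681 in limma).

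In combination against untreated tumors, 19.6% of all genes were higher and 23.6% lower. Of 9 other factors shared by dendritic cells, 5 rose and 1 fell in that comparison (median log2 fold change 0.39). Adam23 rose by 1.35, Dpp4 by 1.06 and Kit by 0.39 on the log2 scale, and Nfil3, a transcription factor needed for cDC1 development, fell by 0.57 (adjusted p from 0.00021 to 0.000762 in limma). Of 9 growth factors and ligands, 5 rose and 3 fell. Flt3l, the ligand of the Flt3 receptor, had means of 142.5 ± 20.7 and 190.8 ± 24.2 and rose by 0.42 on the log2 scale (adjusted p = 0.00302 in limma), beside 0.43 for Flt3 itself. Csf2, the cytokine GM-CSF, fell by 0.87 on the log2 scale from a low mean of 28.4 ± 12.9 (adjusted p = 0.0191), Il34 fell by 0.85 and Kitl by 0.69, and Csf1r rose by 0.60 and Csf2rb by 0.64. Xcl1, the ligand of XCR1, did not pass (log2 difference 0.21, adjusted p = 0.452 in limma), nor did its receptor gene.

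Genes of other cell types moved with the groups, and no marker of these lists was at 0 in every tumor. Among all genes, 19.6% were higher and 23.6% lower with the combination, and 7.21% and 8.1% with anti-LTβR alone, each against untreated. All 8 T cell genes listed rose with the combination against untreated (median log2 fold change 0.84), Cd4 by 1.16 and Cd3e by 1.01, and their summed count ran from 654.0 to 1715 in untreated and from 1357 to 2524 in combination tumors. Of 6 B cell genes 5 rose (median 1.23), Blk by 1.56 and Cd79a by 1.60, with summed counts of 86.7 to 272.6 and 191.6 to 811.0. Of 8 macrophage and monocyte genes 6 rose (median 0.52), Cd68 by 0.85 and Mertk by 0.93, with summed counts of 11872 to 23020 and 16580 to 24940. Of 8 genes of tumor epithelium 5 fell and none rose (median -0.80), with log2 fold changes of -1.53 for Msln and -1.46 for Krt18 and summed counts of 18309 to 34394 and 7702 to 16606. With anti-LTβR alone against untreated, 2 of the 8 T cell genes, 1 of the 6 B cell genes and 3 of the 8 macrophage and monocyte genes rose (medians 0.44, 0.64 and 0.27), and 5 of the 8 genes of tumor epithelium fell (median -0.57). Their summed counts in anti-LTβR tumors ran from 1185 to 1876, 118.1 to 573.0, 15578 to 19764 and 14782 to 18479. The part of these cells in the members' changes was not tested.

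Blood endothelium was set beside Zbtb46 because endothelial cells express that gene too. All 8 endothelial genes rose with the combination against untreated (median log2 fold change 0.99), Egfl7 by 1.43 and Tie1 by 1.26, and their summed count ran from 1408 to 2065 in untreated and from 2672 to 3909 in combination tumors. Zbtb46 rose by 0.92 in the same comparison. With anti-LTβR alone 4 of the 8 rose (median 0.34) and the summed count ran from 1686 to 2365, while Zbtb46 rose by 0.83. Between anti-LTβR and the combination all 8 endothelial genes rose (median 0.74), and Zbtb46 differed by 0.10 without passing. The part of endothelial cells in the changes of Zbtb46 was not tested. Within groups, r between Zbtb46 and the mean log2 level of the 8 genes was 0.08 (Spearman's rho 0.04, and r -0.11 without the 2 tumors farthest out), over 32 tumors and as a description. Over the 11 lists, r of Zbtb46 lay farthest from 0 at -0.55 with the genes of tumor epithelium (rho -0.50, and r -0.49 without 2 tumors) and 0.51 with the other pDC genes (rho 0.49, and r 0.47 without 2 tumors).

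Similar values were set beside Itgae and Wdfy4. CD103, the product of Itgae, is also carried by tissue T cells: within groups r between Itgae and the T cell genes was 0.26 (rho 0.24), and its highest r with another member was 0.44, with Xcr1. WDFY4 is also made by B cells and other myeloid cells: within groups r of Wdfy4 was 0.71 with the macrophage and monocyte genes (rho 0.72, and r 0.71 without the 2 tumors farthest out), 0.55 with the B cell genes and -0.58 with the genes of tumor epithelium. With the macrophage and monocyte genes, r was 0.60 for Flt3, 0.53 for Clec9a, 0.48 for Cd209a and 0.42 for Batf3. It was 0.24 for Zbtb46, 0.12 for Itgae, 0.08 for Xcr1, -0.0003 for Siglech and -0.24 for Fscn1. With the T cell genes, r was 0.54 for Wdfy4 and 0.52 for Clec9a. For Fscn1, r with the genes of tumor epithelium was 0.50 (rho 0.46, and r 0.40 without 2 tumors). Cd209a had its highest r among the lists, 0.71 (rho 0.67), with the other cDC2 genes. That list holds the related gene Cd209d, and the part of shared reads in this r was not tested. With the other cDC1 genes, r was 0.24 for Xcr1, 0.42 for Clec9a, 0.24 for Batf3 and 0.47 for Wdfy4. It was -0.04 for Siglech with the other pDC genes and 0.02 for Fscn1 with the other genes of mature dendritic cells.

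**Figure D4:**
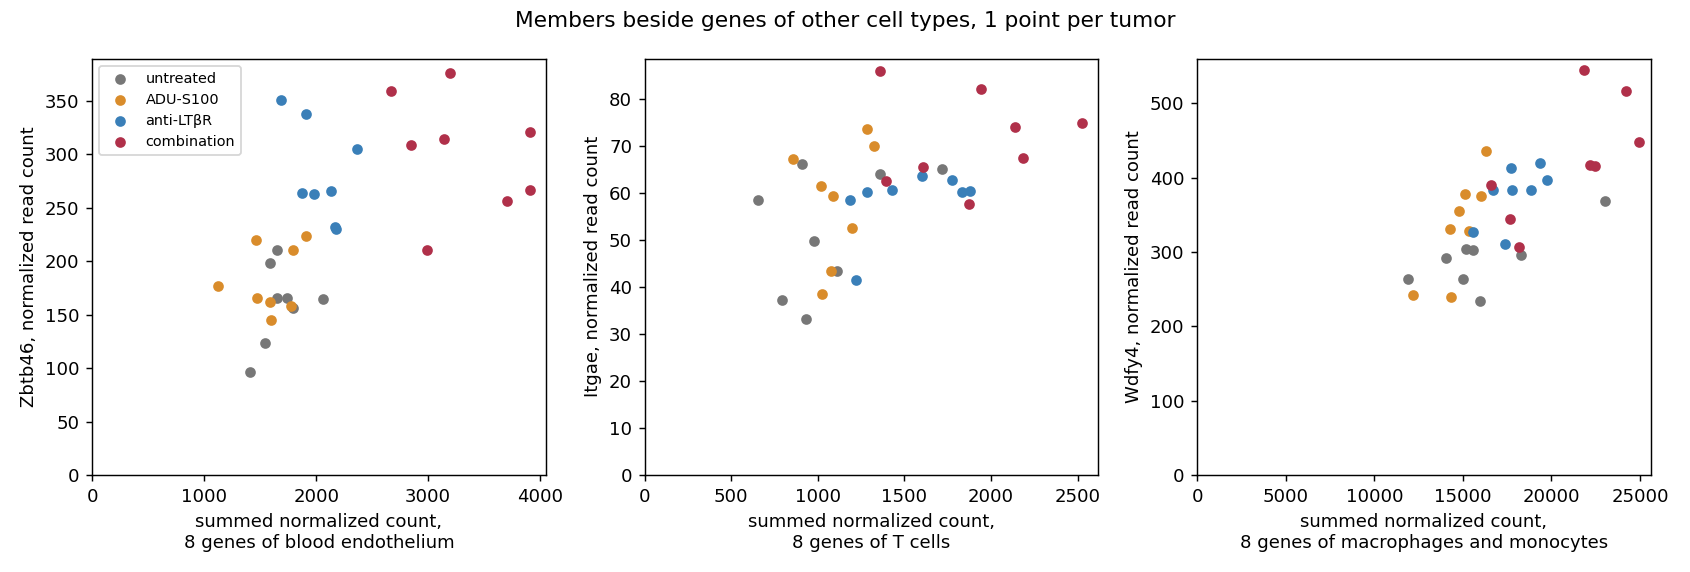
Each point is a tumor, with the summed normalized count of 8 genes of blood endothelium, T cells or macrophages and monocytes on the x axis and the normalized read count of Zbtb46, Itgae or Wdfy4 on the y axis. In the left panel the anti-LTβR tumors stand above the untreated ones at sums that overlap (1686 to 2365 against 1408 to 2065), and the combination tumors stand further right, from 2672 to 3909.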

How the data were processed

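Poly(A) RNA-seq of whole tumors was deposited by the authors as normalized read counts (a signal in counts scaled for library size, not whole reads) in a table of 32 libraries made in Partek and a table of 52. Per the labels, cutadapt 1.9, HISAT2, StringTie, STAR and Partek were used on build mm39. Which aligner made which table, and whether counting used strand, is not given in the sources used here. In the larger table each value divided by the step of 1 read was whole (100.0%, tolerance 0.1), which gave reads back for 9 members; it has no row for Batf3. Another table, with the authors' comparisons, was not used.

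Genes were kept by edgeR's filterByExpr (minimum 10). Pairs of groups were tested with limma 3.58.1 (trend) on log2(normalized count + 1) in R 4.3.3, the interaction over all 32 libraries, with Benjamini-Hochberg adjustment over all genes. Fold changes on this scale understate changes of low genes. edgeR 4.0.16 (quasi-likelihood) and DESeq2 1.42.0 ran on the recovered reads as alternatives. Methods were tested on simulated data. Groups came from the labels. Nothing in the labels says that tumors of a group came from separate mice, so p-values measure the spread between these samples. The members and lists were chosen with earlier results of these data known. Beyond the 10 members, at most 4 genes per dendritic cell or ligand list and 2 per list of other cells, by smallest adjusted p with the combination against untreated, are named, plus Flt3l, Csf2 and Xcl1, unless stated. Levels per kb used exons of GENCODE vM21, and 1 listed symbol (Amica1) was not found.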

Additional observations from a re-analysis of the deposited data

Results flagged for a closer look

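In 5 of 40 sets of a gene and a group, a tumor stood apart from the other 7 by more than Dixon's 95% limit; chance alone flags about 1 set in 20. They were untreated tumor 3 in Clec9a (49.8 normalized counts) and in Cd209a (81.4), ADU-S100 tumor 2 in Cd209a (4.93), anti-LTβR tumor 5 in Itgae (41.4) and combination tumor 8 in Siglech (38.8). Untreated tumor 3 was also the highest of its group in Batf3, Wdfy4, Flt3 and Siglech. The effect of ADU-S100 on Batf3 differed between tumors without and with anti-LTβR, with an interaction term of 0.95 on the log2 scale (adjusted p = 0.0148 in limma).

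The table of 52 libraries also holds 20 libraries of another experiment with 8716257 to 18821792 reads, of which 15 are in no group here because their labels disagree. Their values are on that table's own scale. Over those 15, the median was 46.3 for Xcr1, 53.8 for Clec9a, 514.1 for Wdfy4, 64.7 for Flt3, 146.4 for Zbtb46, 47.4 for Cd209a, 107.4 for Itgae, 23.4 for Siglech and 2556 for Fscn1, so each of the 9 genes was detected there too.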

How the results depend on the processing

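Leaving out combination tumors 6 and 7, chosen after seeing the data, took the count of members past the threshold from 6 to 3 for combination against untreated. Clec9a, Batf3 and Flt3 lost their calls, with log2 fold changes of 0.73, 0.55 and 0.32 against 0.84, 0.59 and 0.43 with all tumors. For combination against anti-LTβR the 1 gene that passed became 0 with edgeR on library totals (which has no Batf3), with a joint fit of the 4 groups and with no filter on low counts. The interaction count became 0 with both edgeR fits, which have no row for Batf3. In the other planned fits of all 6 counts the number stayed within 1.5 times, but not always with the same gene: the 1 gene past the threshold was Itgae in place of Batf3 for combination against anti-LTβR with edgeR TMM (adjusted p = 0.0450) and DESeq2 (0.0457), and Cd209a in place of Batf3 for the interaction with DESeq2 (0.0427), since Batf3 has no row there. With each library left out, the counts ran from 4 to 7 (combination against untreated), 2 to 4 (anti-LTβR against untreated), 0 to 2 (combination against anti-LTβR), 5 to 7 (combination against ADU-S100) and 1 to 2 (interaction). For single genes, 470 of 497 planned values kept direction and side of the threshold, 17 gained and 5 lost the threshold, and 5 changed sign near 0. The cause of the other shifts was not tested.

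Sign changes, in log2, were Siglech with edgeR TMM in anti-LTβR against untreated (-0.0017) and Clec9a in the interaction with DESeq2 (0.098), edgeR TMM (0.092), edgeR on library totals (0.075) and library totals (0.0085). Without combination tumors 6 and 7, Xcr1 against untreated was -0.036 and Clec9a against anti-LTβR -0.064. With each library left out, values that changed sign ran from -0.22 to 0.023 for Siglech in combination against untreated, from -0.036 to 0.21 for Batf3 and -0.14 to 0.085 for Siglech in anti-LTβR against untreated, and from -0.048 to 0.17 for Clec9a, -0.20 to 0.060 for Siglech and -0.013 to 0.024 for Fscn1 in combination against anti-LTβR. They ran from -0.18 to 0.031 for Xcr1 in combination against ADU-S100, and in the interaction from -0.14 to 0.11 for Clec9a and -0.11 to 0.021 for Wdfy4. None of these passed the test.

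Nothing in the labels says that a replicate number marks a shared mouse or batch: same-numbered tumors correlated over 0.1 in 2 to 6 of 8 pairs, and 1 to 3 of 8 correlated best with their own number. With the replicate block the counts were 5, 3, 0, 1 and 7 for combination, anti-LTβR and ADU-S100 against untreated and combination against anti-LTβR and ADU-S100, and 1 for the interaction; Flt3 in combination against untreated lost its call with the block (adjusted p = 0.0742), with edgeR TMM (0.0557) and with no filter on low counts (0.059). At this depth Xcr1 (10.5 to 46.3 normalized counts), Siglech (9.85 to 43.2), Clec9a (13.7 to 75.7), Cd209a (4.93 to 81.4) and Batf3 (15.8 to 61.1) rest on few reads in each tumor. Differences smaller than their intervals were not detectable.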
